A study of Mus musculus with 33 samples.

Results

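The genes described are the mouse enzymes that make, recycle or use glutathione and those that remove peroxides and superoxide. They were chosen by name from the probe annotation of the arrays: glutathione transferases (Gsta, Gstk, Gstm, Gsto, Gstp, Gstt, Gstz and Mgst genes), glutathione peroxidases, peroxiredoxins, thioredoxins and their reductases, and Gclc, Gclm, Gsr, Gss, Sod1, Sod2, Cat, Nqo1 and Hmox1. This gave 51 genes on 73 of the 41174 probes, of which 46 were among the 15860 genes that could be tested. The probes of Gpx5, Gpx6, Gstm6, Gstt1 and Mgst1 did not pass the filter on dim signals. Mgst2, which encodes a membrane-bound glutathione transferase, is treated first.

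Glutathione is a small thiol that cells use to reduce peroxides, through glutathione peroxidases, and to tag reactive compounds, through glutathione transferases. Peroxiredoxins reduce peroxides with electrons passed on by thioredoxin, and superoxide dismutases and catalase turn superoxide into hydrogen peroxide and then water. Many of these genes are targets of the transcription factor NRF2 (Nfe2l2), which KEAP1 marks for degradation, and preimplantation embryos in culture are known to be sensitive to oxidants.

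RNA of 33 single blastocysts of the (C57BL/6NxDBA/2)F1 background was amplified, labelled with Cy3 and measured on 1-colour Agilent arrays. The clones came from male Purkinje cells, the output neurons of the cerebellum (n = 4), male CA1 pyramidal cells of the hippocampus (n = 4), neonatal Sertoli cells, the support cells of the testis (n = 4), female Purkinje cells (n = 4), female CA1 pyramidal cells (n = 4) and cumulus cells, which surround the oocyte (n = 3). Purkinje, CA1 and cumulus donors were adult, per the labels. Male (n = 7) and female (n = 3) blastocysts from in vitro fertilisation (IVF) were the controls. All cloned embryos had received 50 nM trichostatin A (TSA), a histone deacetylase inhibitor, (1 h while being activated, then 5 h together with cytochalasin B, then 2 h by itself), and all embryos were cultured for 96 h, so cloning and TSA cannot be told apart. The labels do not give the number of donor animals or transfer sessions, so a p-value reflects no more than the variation among these blastocysts, some of which may be technical.

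Another scanner and software version had read the 13 arrays of IVF and cumulus blastocysts, which belong to an older data set, than the 20 Purkinje, CA1 and Sertoli arrays. For these 5 clone groups donor and array set cannot be told apart against IVF, whereas the cumulus clones shared the array set with female IVF but not the slide or scan day. Purkinje arrays had less signal than all others: the 75th percentile of signal was 230 to 659 in the males and 354 to 838 in the females, against 904 to 1466 elsewhere. The 5 of the 8 that lay under 500 are called the dim arrays, or arrays of low signal, below. The share of probes well above background was 45.3% to 62.6% per array. Low signals were unlike between the array sets. Per array, 15.7% to 23.3% of signals were at or below 0 in the older set and 0% in the present one. Of low spots, 99.98% to 100% in the present set had a signal within 1% of its error, against 0% to 0.43% in the older. The part of this in differences of genes near the floor was not tested. Trophectoderm markers summed to log2 values of 9.34 to 10.52 in clones and 9.56 to 10.31 in IVF, and no marker of that list or of the inner cell mass list was on the floor throughout a group. In the primitive endoderm list, Gata4 was lower in all 6 clone groups, where it lay on or near the floor (differences of -0.82 to -1.38), and Sox7 in 5 of them. In whole blastocysts, fewer cells of a type and less RNA per cell cannot be told apart, and the part of these marker differences in the results below was not tested.

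Values below are log2 of the signal over the 75th percentile of the array, with a floor at -3.45, and 1 probe, the brightest, stands for a gene. Differences are log2, clone minus IVF of the same sex unless stated, with the standard error of the fit. A gene is said to have risen or fallen, or to be called, at a limma adjusted p under 0.05 over all genes tested. Probe values show no level of one gene against another.

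Calls among these enzymes were most frequent in the Purkinje clones. In male Purkinje clones 23 of the 46 genes were called (50%), 15 higher and 8 lower, against 28.6% of all genes tested (18.3% higher, 10.3% lower). In female Purkinje clones 17 were called (37%), 15 higher and 2 lower, against 19.7% (13.1% and 6.66%). Male CA1 clones had 15 called (32.6%), 12 higher and 3 lower, against 30.9% of all genes (17.6% and 13.3%). This share lay near the background, as did that of Sertoli clones, with 12 called (26.1%), 9 higher and 3 lower, against 25.7% (14.9% and 10.7%). Female CA1 clones had 8 called (17.4%), 7 higher and 1 lower, against 13.3% (8.39% and 4.9%). Cumulus clones had 4 called (8.7%), 2 in each direction, against 5.29% (1.95% and 3.34%).

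The balance of higher and lower calls depended on how arrays were scaled. Scaling to the array median, which lowered the median difference of all genes to -0.13 in male and -0.32 in female Purkinje clones (0.07 and 0.08 otherwise), gave 4 higher and 13 lower in male Purkinje clones and 2 higher and 8 lower in female ones. Of all 16220 genes it gave 1072 higher and 2580 lower in male and 464 higher and 2798 lower in female Purkinje clones. Quantile normalization gave 8 higher and 12 lower in male and 11 higher and 6 lower in female Purkinje clones. Of all 15860 genes it gave 1879 higher and 2122 lower in male and 1182 higher and 1391 lower in female Purkinje clones. The split became 7 to 5 and 10 to 4 (higher to lower, by array median and by quantiles) in male CA1 clones, 6 to 4 and 7 to 8 in Sertoli clones, 2 to 0 and 3 to 2 in female CA1 clones, and 2 to 0 and 2 to 3 in cumulus clones. For all genes the splits were 1660 to 2552 and 2448 to 2422 in male CA1 clones and 1381 to 1918 and 1773 to 2053 in Sertoli clones. They were 799 to 769 and 800 to 1055 in female CA1 clones and 241 to 269 and 394 to 721 in cumulus clones. Normexp background correction gave 13 higher and 10 lower in male Purkinje clones, 10 and 2 in female ones, and 1 and 0 in cumulus clones. Of all 19202 genes it gave 7055 higher and 1663 lower in male Purkinje, 5611 and 986 in female Purkinje and 48 and 104 in cumulus clones. Higher calls in Purkinje clones were then no more frequent among these enzymes than among all genes. Without the 5 Purkinje arrays of low signal, 3 genes stayed called in male Purkinje clones, namely Mgst2, Gsr and Prdx6. Of all 15484 genes tested there, 1063 were higher and 541 lower, so these enzymes were not called more often than other genes. In female Purkinje clones 1 array was left, too few for a count.

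**Figure D1:**
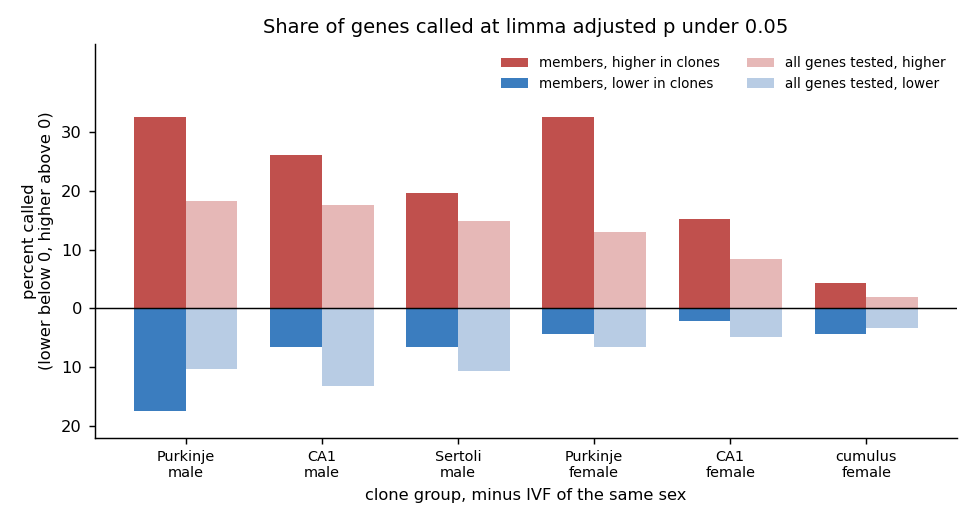
Percent of genes called at limma adjusted p under 0.05 in each clone group against IVF of the same sex, higher above 0 and lower below 0, for the 46 members tested (dark bars) and all 15860 genes tested (pale bars). The bars of the members exceed the pale ones most in the Purkinje groups for higher calls, and are close to them in Sertoli clones.

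Over the 6 clone groups the median difference of the 46 genes was 0.32 for the Purkinje, 0.40 for the CA1 and 0.07 for the Sertoli clones among males, and 0.46 for the Purkinje, 0.18 for the CA1 and -0.09 for the cumulus clones among females, beside 0.07, 0.01, 0.00, 0.08, 0.07 and -0.02 for all genes. At least 1 of the 6 comparisons called 31 of the genes and none called the other 15. Mgst2 was called higher in 6 of 6 groups, and Gsr, Gsto2 and Prdx6 in 5 each. No member was called lower in 4 or more groups. Comparisons of a sex share their IVF arrays, and only for higher calls in all 6 is a share over all genes given (below). The other counts do not set these enzymes apart from other genes. A positive difference in every group was found for 11 genes, called or not (among them Gpx2, Gss, Gsta3, Gsta4, Gstt2, Gstt3 and Gstz1), and a negative one for 6 (Gpx1, Gstm2, Mgst3, Prdx1, Prdx4 and Prdx5). Prdx1 differed by only -0.011 in Sertoli clones. Shared IVF arrays make signs agree in part, and the share of such genes over all genes is not given either. Txnrd2 was among the 11 by its brightest probe only: its other probes were negative in 5 of the 6 groups. Among the negative genes, a second Prdx4 probe was positive in both Purkinje groups and male CA1 clones, and 1 Mgst3 probe was positive in cumulus clones.

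**Figure D2:**
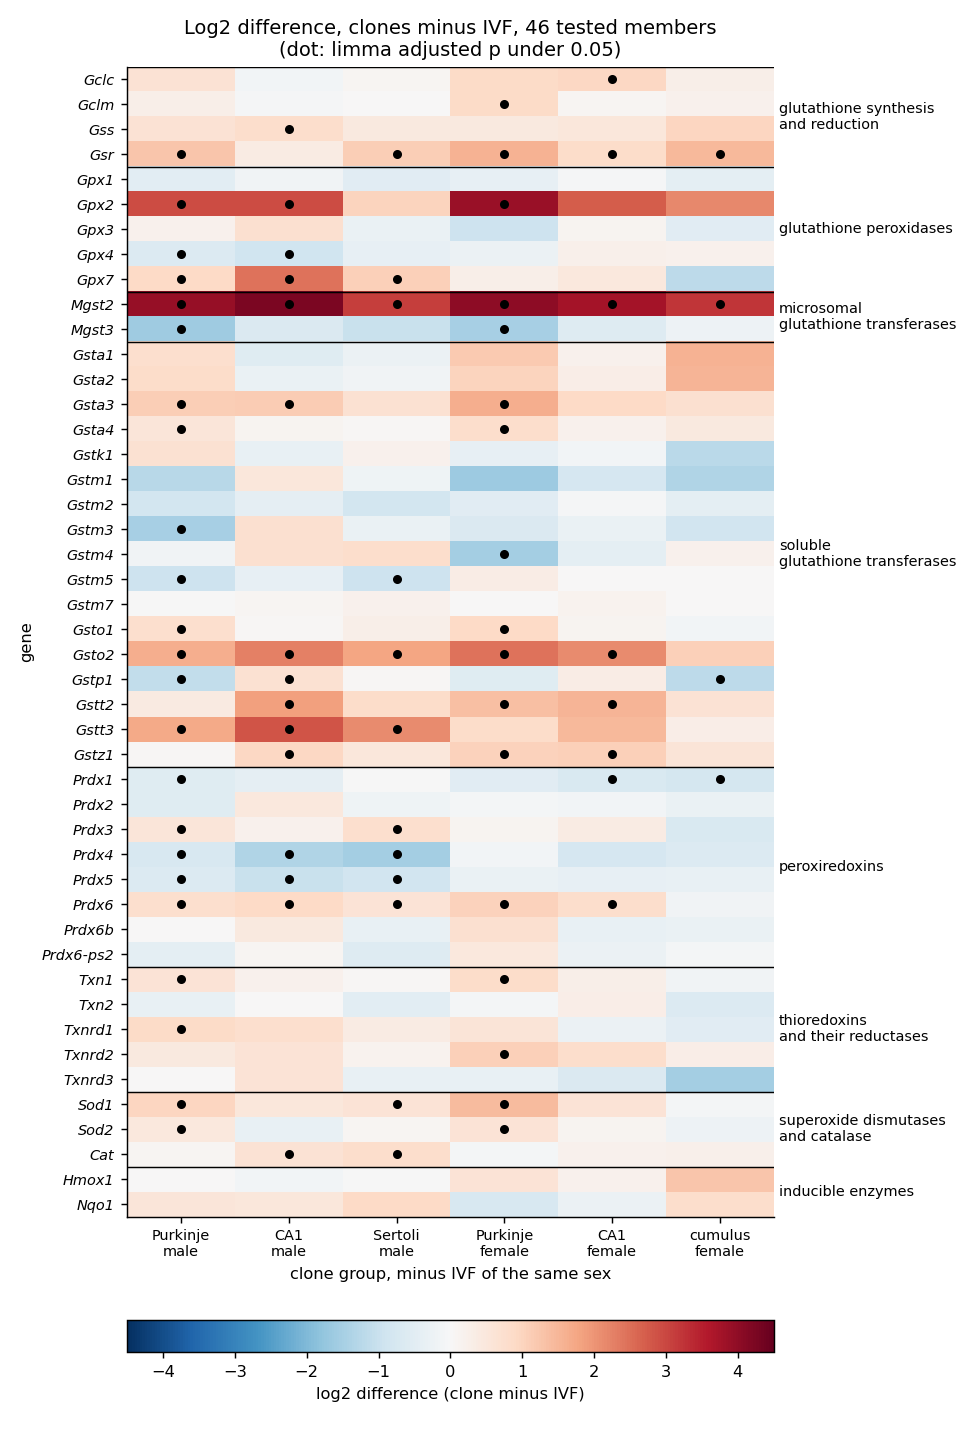
Log2 difference of each tested member, clone minus IVF of the same sex, for the 6 clone groups (columns), with genes (rows) in order of their roles. Red is higher and blue lower in clones, and a dot marks limma adjusted p under 0.05. Mgst2 is the only row with a dot in all 6 columns.

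Mgst2 had the largest difference of all 46 genes in every clone group, 3.12 to 4.24 log2. Values in male Purkinje clones were 3.31, 1.77, 4.20 and 3.88, in male CA1 clones 3.73, 3.36, 3.60 and 3.79, and in Sertoli clones 3.22, 2.88, 2.72 and 1.19. In male IVF blastocysts the lowest, median and highest were -1.72, -0.25 and 0.39. None of these 12 clones overlapped with the male IVF blastocysts. Female Purkinje clones had 2.95, 4.17, 4.20 and 2.97, female CA1 clones 4.21, 3.39, 3.34 and 2.19, and cumulus clones 3.07, 2.08 and 3.1, against 0.86, -1.59 and -0.64 in female IVF blastocysts. All 23 clones lay above all 10 IVF blastocysts, which held in the higher direction for 42 of the 15860 genes (0.265%). Called higher in all 6 comparisons were 53 genes (0.334%).

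The difference for Mgst2 was 3.91 ± 0.52 (SE) in male Purkinje clones, or 15.0-fold (limma adjusted p = 6.35e-06), and 4.24 ± 0.52, or 18.9-fold, in male CA1 clones (adjusted p = 5.76e-07). Sertoli clones differed by 3.12 ± 0.52, or 8.71-fold (adjusted p = 8.19e-05). In females the differences were 4.03 ± 0.63, or 16.3-fold, for Purkinje (adjusted p = 0.00011), 3.74 ± 0.63, or 13.3-fold, for CA1 (adjusted p = 0.000289) and 3.20 ± 0.68, or 9.22-fold, for cumulus clones (adjusted p = 0.00708). The cumulus result lies within 1 array set, and there the adjusted p was 0.0511 without female IVF replicate 2 (difference 2.64). Without the Purkinje arrays of low signal the difference was 3.16 in male Purkinje clones (adjusted p = 0.00418) and 3.41 in female ones (adjusted p = 0.0724). By difference it stood between place 5 (female CA1) and place 20 (Sertoli) of all genes tested.

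In order of mean level the groups ran male CA1 3.62 ± 0.19 (SD, n = 4), female Purkinje 3.57 ± 0.70 (n = 4), male Purkinje 3.29 ± 1.08 (n = 4), female CA1 3.28 ± 0.83 (n = 4), cumulus 2.75 ± 0.58 (n = 3), Sertoli 2.50 ± 0.90 (n = 4), female IVF -0.46 ± 1.24 (n = 3) and male IVF -0.62 ± 0.95 (n = 7). Neighbouring clone groups differed by less than their spread. Of the clone groups compared directly, male Purkinje minus male CA1 was -0.33 (adjusted p = 0.782), female Purkinje minus female CA1 0.29 (adjusted p = 0.856), and male CA1 minus Sertoli 1.12 (adjusted p = 0.228). Male minus female IVF was -0.17 (adjusted p = 0.976). The gene has 1 probe, annotated to its RefSeq transcript, which was well above background on all 33 arrays and saturated on none.

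**Figure D3:**
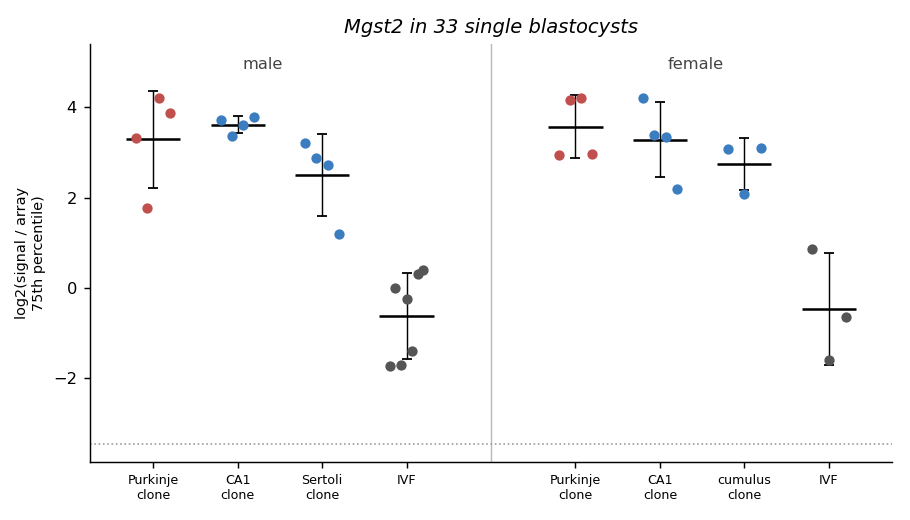
Mgst2 signal in each of the 33 blastocysts, as log2 of signal over the array's 75th percentile (y axis), by group (x axis), males left and females right of the line. Points are arrays, long bars means, whiskers SD, the dotted line is the floor. All clones lie at 1.19 or above and all IVF blastocysts at 0.86 or below.

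By its brightest probe Mgst3, the paralogue of Mgst2, went the other way. It was 2.26, 3.79, 1.42 and 1.15 in male Purkinje clones, against a lowest, median and highest of 3.25, 3.59 and 4.41 in male IVF (difference -1.59 ± 0.44, adjusted p = 0.00776). In females it was 3.64, 0.95, 2.32 and 0.63 in Purkinje clones and 2.65, 3.75 and 3.77 in IVF (-1.51 ± 0.54, adjusted p = 0.0467). The lowest values of each sex sat on dim arrays (male replicates 3 and 4, female replicates 2, 3 and 4), and male replicate 1, which was not among the dim ones, also lay below the IVF range. Without the dim arrays the female difference was 0.25 and the male one -0.72, neither called. In the other clone groups it was -0.64 (male CA1), -1.01 (Sertoli), -0.57 (female CA1) and -0.23 (cumulus), none called. Its other probes gave -1.71 and -0.88 in male Purkinje, -1.23 and -0.27 in female Purkinje and -0.53 and 0.55 in cumulus clones. Over probes, no probe of Mgst3 was called in female Purkinje clones (limma adjusted p = 0.0519, 0.107 and 0.801).

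Of the enzymes that make and recycle glutathione, Gsr stood out. It encodes glutathione reductase, which turns oxidised glutathione back to the reduced form. Male Purkinje clones had 4.36, 4.02, 4.22 and 4.73, Sertoli clones 4.25, 4.18, 3.97 and 4.28, and male CA1 clones 3.55, 3.50, 3.28 and 3.50, against a lowest, median and highest of 2.29, 2.95 and 4.13 in male IVF blastocysts. The IVF maximum, replicate 4, reached the range of the Purkinje and Sertoli clones, and the CA1 values lay inside the IVF range. Female Purkinje clones had 4.04, 4.31, 4.71 and 4.55, female CA1 clones 3.95, 3.91, 3.45 and 3.28 and cumulus clones 4.36, 4.35 and 4.21, against 2.62, 2.78 and 3.12 in female IVF. The female groups did not overlap with IVF. The differences were 1.26 ± 0.22 (male Purkinje, adjusted p = 0.000135), 1.09 ± 0.22 (Sertoli, 0.000631), 0.38 (male CA1, not called), 1.56 ± 0.27 (female Purkinje, 0.000231), 0.81 ± 0.27 (female CA1, 0.0431) and 1.47 ± 0.29 (cumulus, 0.0042). Its other probes gave positive differences in all 6 groups as well, 1.43 to 2.26 for one and 0.64 to 1.55 for the other, and both were called in male CA1 clones (1.43 and 0.66, adjusted p = 0.00141 and 0.0422 over probes).

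Gsr was the only gene of this role called in more than 1 group. Gclc, the catalytic subunit of the enzyme of the first step of glutathione synthesis, rose in female CA1 clones (0.95 ± 0.32, adjusted p = 0.0472), where the values of its 4 arrays ran between 0.65 and 2.52, against 0.26 to 0.97 in female IVF. Without female CA1 replicate 1 the difference of Gclc was 0.61, and the call was kept in 3 of 7 fits without an array. Gclm, the modifier subunit of the same enzyme, rose in female Purkinje clones (0.86 ± 0.21, adjusted p = 0.00501), with 2 of the 3 female IVF arrays on the floor. Gss, which adds glycine in the last step, rose in male CA1 clones (0.78 ± 0.27, adjusted p = 0.0305).

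Among the glutathione peroxidases, Gpx2, the form best known from the gut lining, had the largest differences but also a wide spread. Gpx2, Mgst3 and the genes below other than Gsto2 and Prdx6 were chosen for values by array after their values were seen. It was 3.56, -0.25, 1.86 and 2.31 in male Purkinje, 3.26, -0.34, 2.42 and 2.18 in male CA1 and 0.49, -0.96, -0.99 and 1.18 in Sertoli clones, against a lowest, median and highest of -3.43, -1.09 and 1.00 in male IVF. In females it was 2.88, 2.24, 3.56 and 3.03 in Purkinje, 2.43, 1.72, 3.06 and -0.11 in CA1 and 1.36, 1.03 and 1.20 in cumulus clones, against -1.08, -2.40 and 0.63 in IVF. One array of each male neuronal group lay inside the IVF range, and so did 1 female CA1 array, while female Purkinje and cumulus clones lay above it. The differences were 2.93 ± 0.77 in male Purkinje (adjusted p = 0.00554), 2.94 ± 0.77 in male CA1 (0.00457) and 3.88 ± 0.94 in female Purkinje clones (0.00482). Those of Sertoli (0.99), female CA1 (2.73) and cumulus clones (2.15) were not called.

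Gpx7, a peroxidase of the endoplasmic reticulum, separated the male CA1 clones from the rest. They had 1.12, 1.12, 1.23 and 1.31, against 0.48, -1.10, -0.25 and -0.50 in male Purkinje clones, -0.46, 0.14, 0.41 and -0.69 in Sertoli clones and a lowest, median and highest of -2.01, -1.38 and -0.40 in male IVF. All 4 CA1 values lay above every other male value. The difference from IVF was 2.43 ± 0.31 (adjusted p = 9.48e-07), with 0.89 ± 0.31 in male Purkinje (0.0302) and 1.08 ± 0.31 in Sertoli clones (0.0107). Male CA1 clones also exceeded the Sertoli clones, by 1.35 ± 0.35 (adjusted p = 0.0122), the only 1 of the 46 genes called there against 11.7% of all genes (5.46% higher, 6.25% lower). Female CA1 clones had 0.08, 0.26, 0.58 and -0.13, against 0.08, -0.20 and -0.68 in female IVF, and the lowest of the clones lay inside the IVF range. In females the differences were 0.25 (Purkinje), 0.47 (CA1) and -1.18 (cumulus), none called. The CA1 minus IVF difference was smaller in females than in males by 1.96 ± 0.48 (interaction, adjusted p = 0.0412).

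Gpx4, which reduces lipid peroxides in membranes, fell in male Purkinje (-0.63 ± 0.18, adjusted p = 0.00889) and male CA1 clones (-0.91 ± 0.18, adjusted p = 0.000287). The arrays read 5.11, 5.10, 5.20 and 5.39 in male Purkinje and 5.20, 5.14, 4.81 and 4.54 in male CA1 clones, against a lowest, median and highest of 5.29, 5.91 and 6.31 in male IVF. Only the highest Purkinje value overlapped with IVF. Male IVF replicates 3, 4 and 5 read 5.48, 5.43 and 5.29, nearer to the clones. Replicates 1, 2, 6 and 7 read 6.31, 5.91, 6.21 and 6.16. The size of the fall therefore depends on which IVF arrays are used, and the cause of this split was not tested. Female CA1 clones had 5.60, 5.50, 5.85 and 5.61, against 5.23, 5.66 and 5.35 in female IVF, and overlapped. The CA1 minus IVF difference was higher in females than in males by 1.14 ± 0.28 (interaction, adjusted p = 0.0405). For Gpx4 and Gpx7, 2 of 46 genes had such an interaction in CA1 clones, against 1.07% of all genes (0.485% higher, 0.58% lower), and 0 in Purkinje clones, against 0.0567% (0.0126% higher, 0.0441% lower, with 5 members at an unadjusted p under 0.05 in limma). With slide as a random block, neither was called (adjusted p = 0.0653 for Gpx7 and 0.0688 for Gpx4), and each was kept in 7 of 18 fits without an array. Gpx1 and Gpx3, the abundant cytosolic and the plasma form in adult tissues, were called in no group.

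Gsto2, an omega-class glutathione transferase that also reduces dehydroascorbate, rose in 5 clone groups. Values were 0.04, -1.10, 0.79 and -0.15 in male Purkinje, 0.56, 0.88, 0.16 and 0.53 in male CA1 and 0.42, 0.80, 0.20 and -1.22 in Sertoli clones, against a lowest, median and highest of -3.45, -1.26 and -0.39 in male IVF. In females they were -0.15, -0.43, -0.95 and 0.04 in Purkinje, -2.27, 0.24, 0.11 and -0.82 in CA1 and -2.96, -0.73 and -1.53 in cumulus clones, against -3.33, -1.68 and -3.45 in IVF. Male CA1 and female Purkinje clones lay above every IVF array of their sex, and the other groups overlapped in 1 array each. On the floor were 2 male IVF arrays and 1 female IVF array, so the differences are understated there. They were 1.62 ± 0.58 (male Purkinje, adjusted p = 0.0378), 2.26 ± 0.58 (male CA1, 0.00408) and 1.77 ± 0.58 (Sertoli, 0.0258) in males. In females they were 2.45 ± 0.71 (Purkinje, adjusted p = 0.0158), 2.14 ± 0.71 (female CA1, 0.0443) and 1.08 (cumulus, not called). With 1 array left out at a time the Gsto2 call was kept in 5 of 11 fits in male Purkinje, 6 of 11 in Sertoli, 5 of 7 in female Purkinje and 2 of 7 in female CA1 clones, and in 11 of 11 in male CA1 clones.

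**Figure D4:**
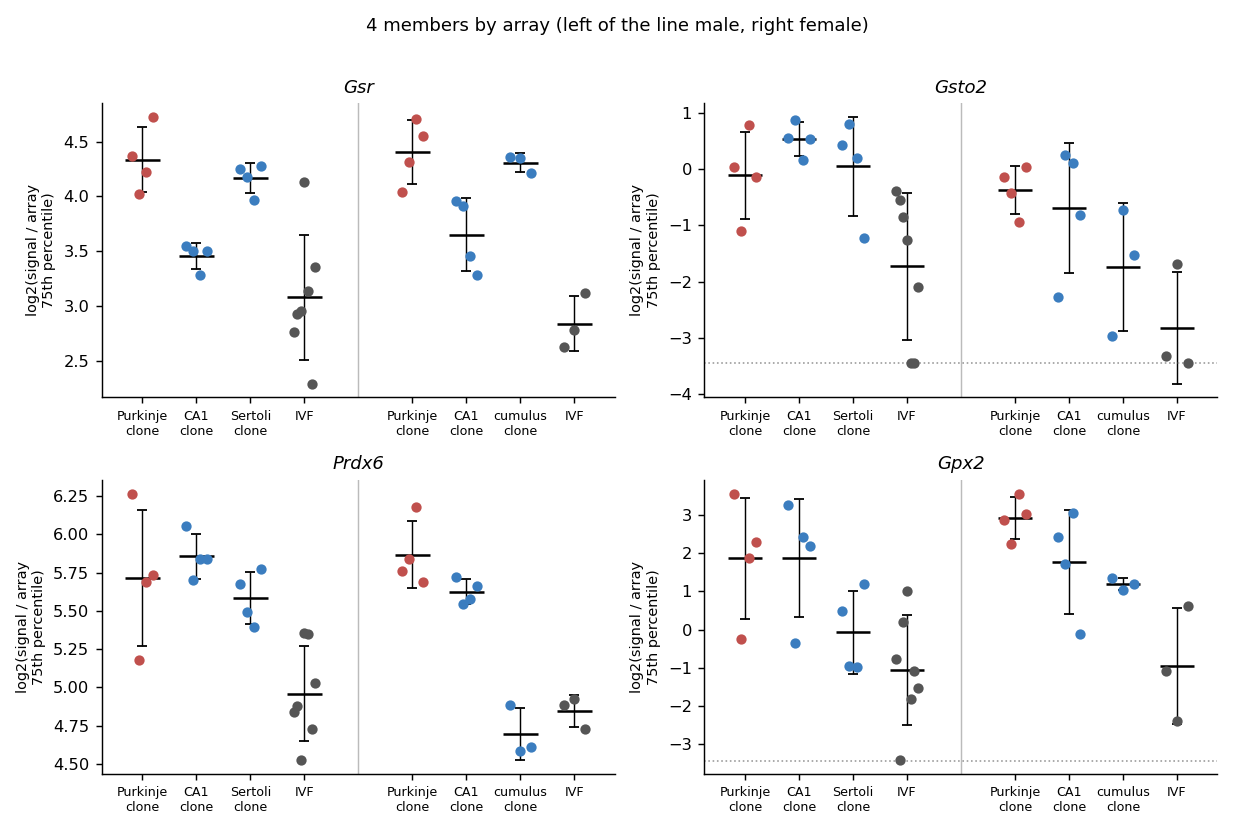
Signal by array for Gsr, Gsto2, Prdx6 and Gpx2, as log2 of signal over the array's 75th percentile (y axis), by group (x axis), males left and females right of the line. Points are arrays, long bars means, whiskers SD, the dotted line is the floor. For Gsr the 3 cumulus clones lie at 4.21 to 4.36, above the 3 female IVF blastocysts at 2.62 to 3.12.

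Of the theta class of soluble transferases, Gstt3 rose in the 3 male clone groups. It was -0.84, 0.06, -0.15 and -0.32 in male Purkinje, 0.32, 1.15, 0.78 and 1.11 in male CA1 and -0.55, 0.72, 0.75 and -0.47 in Sertoli clones, against a lowest, median and highest of -3.45, -1.60 and -1.10 in male IVF. The 12 clones and the 7 IVF blastocysts did not overlap. The differences were 1.69 ± 0.41 (male Purkinje, adjusted p = 0.00274), 2.85 ± 0.41 (male CA1, 5.53e-06) and 2.12 ± 0.41 (Sertoli, 0.000377), and in females 0.83, 1.45 and 0.31 for Purkinje, CA1 and cumulus clones, none called. Gstt2 rose in male CA1 (1.86 ± 0.36, adjusted p = 0.000269), female Purkinje (1.34 ± 0.44, 0.0316) and female CA1 clones (1.53 ± 0.44, 0.0213). Gstz1, which also acts in tyrosine breakdown as maleylacetoacetate isomerase, rose in the same 3 groups, by 0.93, 1.04 and 1.08.

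Alpha-class Gsta3 rose in male Purkinje (1.1 ± 0.36, adjusted p = 0.0244), male CA1 (1.14 ± 0.36, 0.0183) and female Purkinje clones (1.65 ± 0.44, 0.00989). Gsta4, whose product conjugates the lipid aldehyde hydroxynonenal, and Gsto1, an omega-class transferase, rose in both Purkinje groups. Gsta4 differed by 0.54 in males and 0.80 in females, Gsto1 by 0.74 and 0.88. Both were also above CA1 clones of the same sex, Gsta4 by 0.42 (-0.045 with normexp correction) and 0.60 and Gsto1 by 0.68 and 0.77 in males and females. Gsta1 and Gsta2, near-identical genes whose probes may share signal, were not called. In the mu class, whose probes may likewise share signal, Gstm3 fell in male Purkinje clones (-1.49 ± 0.50, adjusted p = 0.0265) and Gstm4 in female ones (-1.52 ± 0.41, 0.00956). Gstm5 was called lower in male Purkinje clones (0.40 with normexp correction) and in Sertoli clones, with all 4 arrays of each on the floor. In Sertoli clones no array was well above background, and the floored means were 1.89-fold lower than in male IVF (adjusted p = 0.0198). Male IVF replicate 5 was on the floor too, so this fold is not a bound. Gstm1, Gstm2, Gstm7 and Gstk1 were not called.

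Gstp1, the pi-class transferase that dominates in many proliferating tissues, was called in opposite directions. Male Purkinje clones had 5.15, 5.58, 4.72 and 4.73, male CA1 clones 7.09, 6.93, 6.70 and 6.60 and Sertoli clones 6.32, 6.32, 6.02 and 6.14, against a lowest, median and highest of 5.60, 6.31 and 6.72 in male IVF. All Purkinje values lay below the IVF range, whose lowest arrays were replicates 3, 4 and 5 (5.60, 5.79 and 5.73), as for Gpx4. The CA1 values overlapped with its upper end. The differences were -1.11 ± 0.23 in male Purkinje (adjusted p = 0.000621), 0.67 ± 0.23 in male CA1 (0.0239) and 0.04 in Sertoli clones. Cumulus clones, at 5.30, 4.52 and 4.88 against 6.15, 6.18 and 5.87 in female IVF, fell by 1.17 ± 0.29 (adjusted p = 0.0203) and did not overlap. Female Purkinje and CA1 clones differed by -0.53 and 0.34 and were not called. The second probe differed by -2.02 in male Purkinje and -1.01 in cumulus clones, but by 0.04 in male CA1 clones.

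Peroxiredoxins moved in both directions. Prdx6, which reduces phospholipid peroxides with glutathione, was 6.27, 5.18, 5.69 and 5.73 in male Purkinje, 6.05, 5.70, 5.84 and 5.84 in male CA1 and 5.67, 5.49, 5.39 and 5.77 in Sertoli clones, against a lowest, median and highest of 4.52, 4.88 and 5.36 in male IVF. Only male Purkinje replicate 2 lay inside the IVF range. In females it was 5.76, 5.84, 6.18 and 5.69 in Purkinje, 5.72, 5.54, 5.57 and 5.66 in CA1 and 4.89, 4.59 and 4.61 in cumulus clones, against 4.88, 4.92 and 4.73 in IVF. The neuronal clones lay above IVF and the cumulus clones overlapped. The differences were 0.76 ± 0.17 (male Purkinje, adjusted p = 0.00127), 0.90 ± 0.17 (male CA1, 0.00016) and 0.63 ± 0.17 (Sertoli, 0.0068) in males. In females they were 1.02 ± 0.20 (Purkinje, adjusted p = 0.000909), 0.78 ± 0.20 (female CA1, 0.0113) and -0.15 (cumulus, not called). These values rest on the brightest of 4 probes. The others differed by -1.01, -0.93 and -0.19 in male Purkinje and by -0.62, -1.08 and -0.31 in male CA1 clones, and the mean over the 4 probes was lower in clones in 4 of these 5 groups, so no direction can be given for the gene as a whole.

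Prdx4, the X-linked peroxiredoxin of the secretory pathway, and Prdx5, found in mitochondria and peroxisomes, fell in the male clones. Prdx4 was 3.78, 3.97, 4.11 and 4.20 in male Purkinje, 3.57, 2.79, 3.65 and 3.48 in male CA1 and 3.27, 3.03, 3.36 and 3.18 in Sertoli clones, against a lowest, median and highest of 4.21, 4.62 and 5.32 in male IVF. No male clone overlapped with male IVF. In the order given, the differences were -0.72 ± 0.26 (adjusted p = 0.0355), -1.36 ± 0.26 (0.00019) and -1.52 ± 0.26 (9.05e-05). In females they were -0.12, -0.74 and -0.61 for Purkinje, CA1 and cumulus clones, none called. A second, dimmer Prdx4 probe differed by 0.75 in male Purkinje and 0.69 in male CA1 clones, against the direction of the first, and by -0.59 in Sertoli clones.

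Prdx5 was 1.62, 2.18, 2.35 and 2.16 in male Purkinje, 1.96, 2.19, 1.64 and 1.04 in male CA1 and 2.04, 1.54, 1.80 and 1.99 in Sertoli clones, against a lowest, median and highest of 2.10, 2.67 and 3.33 in male IVF. The Sertoli values lay below the IVF range and the neuronal ones overlapped with it. In the order given, the differences were -0.62 ± 0.22 (adjusted p = 0.032), -0.99 ± 0.22 (0.000887) and -0.85 ± 0.22 (0.00457). Prdx1, the abundant cytosolic form, fell in male Purkinje (-0.54 ± 0.16, adjusted p = 0.0149), female CA1 (-0.67 ± 0.20, 0.0254) and cumulus clones (-0.78 ± 0.21, 0.0313). Prdx3, the mitochondrial form, rose in male Purkinje (0.55 ± 0.18, adjusted p = 0.0221) and Sertoli clones (0.77 ± 0.18, 0.00235). Prdx6b and Prdx6-ps2, a pseudogene, were called against IVF in no group and are copies of Prdx6 that may share its signal. Prdx2, another cytosolic form, was not called by its brightest probe (-0.53 in male Purkinje, 0.46 in male CA1 and -0.20 in Sertoli clones). Its other probes, also above background on all 33 arrays, were called lower in male Purkinje (-1.28 and -1.44), Sertoli (-0.97 and -0.94) and female CA1 clones (-0.91 and -1.14), and 1 of them in male CA1 clones (-0.79, adjusted p = 0.03 over probes), so the result for Prdx2 depends on the probe.

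Of the thioredoxin system, Txn1, the cytosolic thioredoxin, rose in male (0.62 ± 0.16, adjusted p = 0.00426) and female Purkinje clones (0.83 ± 0.19, 0.00301), though normexp correction gave -0.035 in males. The cytosolic reductase Txnrd1 rose in male (0.86 ± 0.29, adjusted p = 0.028) and the mitochondrial reductase Txnrd2 in female Purkinje clones (1.08 ± 0.38, 0.044). The other Txnrd2 probes gave -0.26 and -0.05 there, and the call was kept in 1 of 7 fits that left out an array. By their brightest probes Txn2, the mitochondrial thioredoxin, and Txnrd3 were not called, and none of the 5 genes was called in CA1, Sertoli or cumulus clones against IVF. The second Txn2 probe, also above background on all 33 arrays, was called lower in male Purkinje (-0.65), male CA1 (-0.83) and Sertoli clones (-0.65, adjusted p = 0.00513, 0.000427 and 0.00552 over probes).

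Sod1, the cytosolic superoxide dismutase, was 6.61, 7.11, 7.19 and 7.58 in male Purkinje, 7.02, 6.67, 6.71 and 6.27 in male CA1 and 6.65, 6.57, 6.47 and 7.34 in Sertoli clones, against a lowest, median and highest of 5.80, 6.02 and 6.53 in male IVF. In females it was 6.84, 7.87, 8.17 and 7.71 in Purkinje, 7.03, 6.84, 6.95 and 6.46 in CA1 and 6.23, 5.68 and 6.46 in cumulus clones, against 6.42, 6.09 and 6.12 in IVF. Both Purkinje groups and the female CA1 clones lay above IVF, and the highest Purkinje values sat on dim arrays. Sod1 rose in male Purkinje (0.98 ± 0.23, adjusted p = 0.00223), Sertoli (0.61 ± 0.23, 0.0491) and female Purkinje clones (1.44 ± 0.28, 0.000762), and without the dim arrays the Purkinje differences were 0.72 and 0.63, neither called. Sod2, the mitochondrial dismutase, rose in both Purkinje groups by 0.48 and 0.62, a direction that normexp correction and quantile normalization turned. Cat, catalase, rose in male CA1 (0.66 ± 0.22, adjusted p = 0.0262) and Sertoli clones (0.79 ± 0.22, 0.0104).

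**Figure D5:**
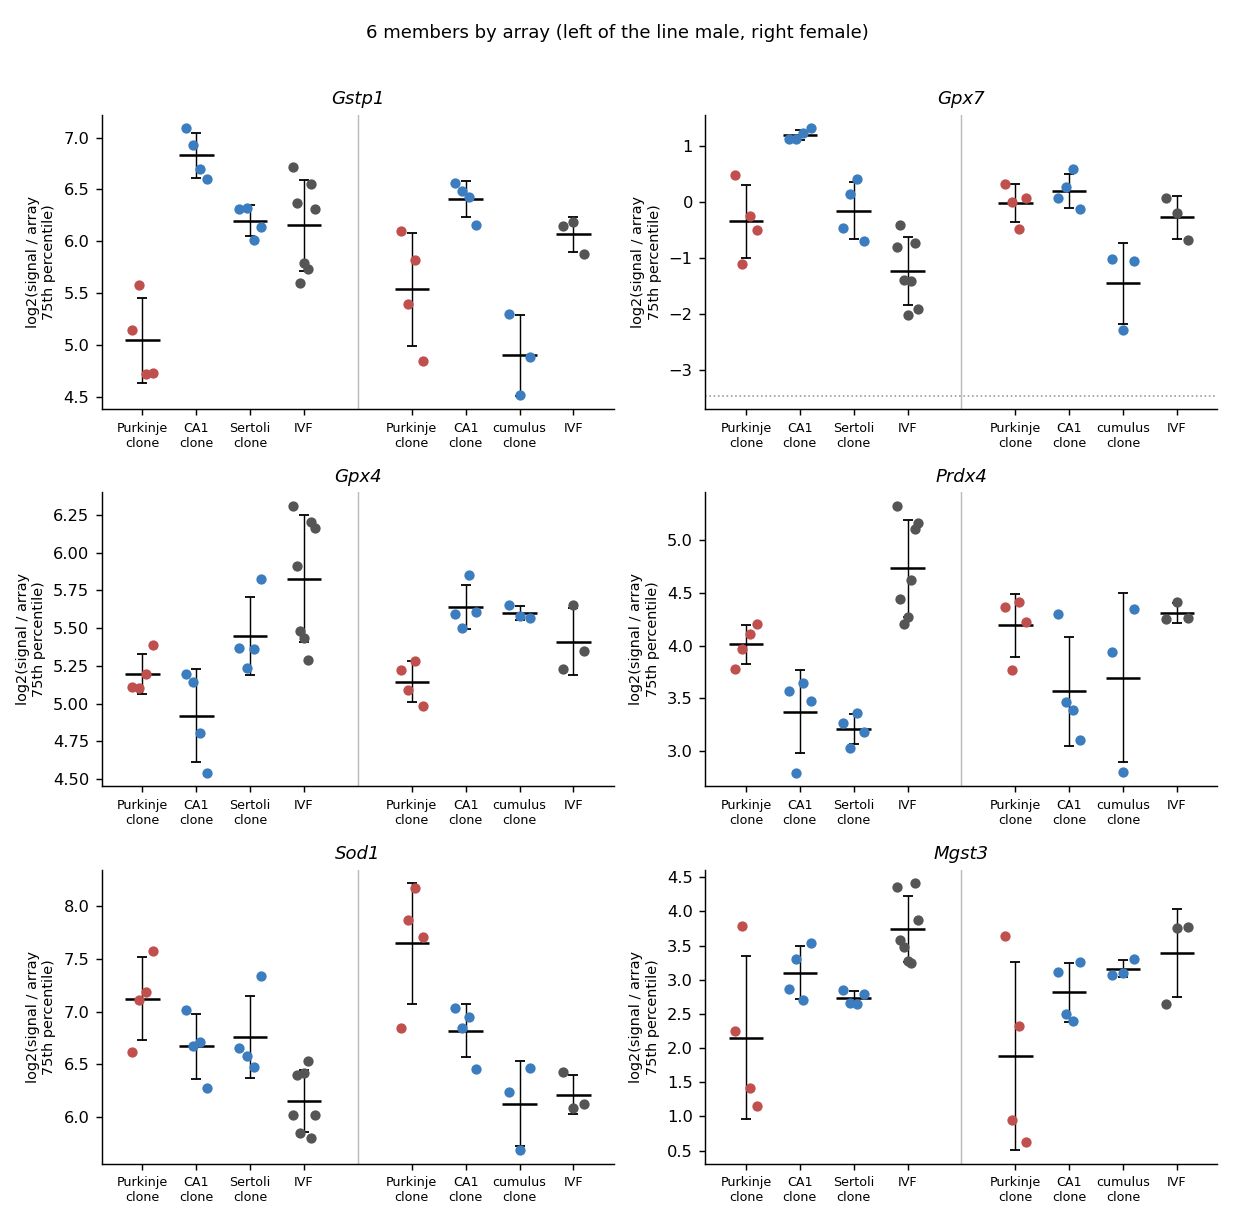
Signal by array for Gstp1, Gpx7, Gpx4, Prdx4, Sod1 and Mgst3, as log2 of signal over the array's 75th percentile (y axis, a range of its own in each panel), by group (x axis), males left and females right of the line. Points are arrays, long bars means, whiskers SD, and the dotted line, where a panel reaches it, is the floor. For Gpx7 the 4 male CA1 clones lie at 1.12 to 1.31, above all other males.

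Hmox1, haem oxygenase 1, and Nqo1, a quinone reductase, which are among the best known NRF2 targets, were called in no clone group. The differences of Hmox1 were 0.01, -0.11, -0.02, 0.62, 0.20 and 1.25 and those of Nqo1 0.53, 0.52, 0.90, -0.73, -0.27 and 0.81 (clones of male Purkinje, CA1 and Sertoli cells, then of female Purkinje, CA1 and cumulus cells). Nqo1 was on the floor in at least 1 array of 6 of the 8 groups. Of 45 further genes of the pathway 42 were tested. In male Purkinje clones 12 were higher and 4 lower, in male CA1 clones 16 and 4, in Sertoli clones 14 and 3, in female Purkinje clones 7 and 2, in female CA1 clones 5 and 0 and in cumulus clones 2 and 0. Of all genes tested 28.6%, 30.9%, 25.7%, 19.7%, 13.3% and 5.29% were called in these comparisons, so the counts of female Purkinje, female CA1 and cumulus clones lay near the background. Maff, a small MAF protein that pairs with NRF2-type factors, rose in all 6 groups, by 3.32, 3.54, 2.99, 2.16, 2.19 and 1.44 in the same order, with the call in cumulus clones kept in 2 of 6 fits without an array (adjusted p up to 0.125). Fth1, the ferritin heavy chain, rose in all but the cumulus clones (0.67 to 1.52). Keap1 fell in male Purkinje (-1.72), male CA1 (-1.09), Sertoli (-1.29) and female Purkinje clones (-1.37). The call in female Purkinje clones was kept in 1 of 7 fits without an array, and the difference ran between -1.98 and -0.0099 over all alternatives. Nfe2l2 itself, named for its role and not by its number of calls, rose in the 3 male clone groups by 1.35, 1.17 and 1.06. Its calls were not followed over the alternatives. Ggt1, which cleaves extracellular glutathione, Blvra, which turns biliverdin into bilirubin, and Nqo2, a quinone reductase, rose in the 3 male groups and in female Purkinje clones, and Hmox2, the constitutive haem oxygenase, in the male groups and female CA1 clones.

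Promoter windows of RefSeq (build GRCm38.p6), 250 bases before and 50 after an annotated start, were at hand for 43 of the 51 genes. They were searched on both strands for TGACNNNGC, the core of the antioxidant response element, and for TGACTCA, the site of AP-1, which overlaps with it when GC follows and was added after the sequences were seen. TGACNNNGC lay in a window of 8 of the 43 genes (18.6%), against 14.0% of all 27025 genes with a window, and TGACTCA in 4 (Gstm5, Gstp1, Mgst2 and Prdx1), against 5.95%. Of the 18 genes with a window that were called higher in at least 1 group, 4 held TGACNNNGC (Gclm, Gsta3, Sod1 and Txnrd1), of the 9 called lower, 2 (Gstm5 and Prdx1), and of the 12 called in none, 1 (Gstm7). A match is a run of letters and not a shown site. The Mgst2 window is that of an annotated start inside the span of the gene, not of its outermost start. The windows of Mgst2, Gpx2 and Gsto2, with large differences and no TGACNNNGC, and of Sod1, Gsta3 and Txnrd1, with one, are given from the 5′ end, with matches in capitals. The Gsto2 window is the upstream one of a pair, and the Txnrd1 window is the only one of 3 with a match.
Mgst2, chr3:51660929-51661228 (+ strand): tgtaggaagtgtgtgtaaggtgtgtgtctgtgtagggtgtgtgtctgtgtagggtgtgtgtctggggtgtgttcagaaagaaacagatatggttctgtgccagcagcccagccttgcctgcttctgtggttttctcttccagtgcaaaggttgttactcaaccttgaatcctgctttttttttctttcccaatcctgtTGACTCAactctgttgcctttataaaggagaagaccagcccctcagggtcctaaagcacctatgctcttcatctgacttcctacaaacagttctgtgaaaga
Gpx2, chr12:76795505-76795804 (- strand): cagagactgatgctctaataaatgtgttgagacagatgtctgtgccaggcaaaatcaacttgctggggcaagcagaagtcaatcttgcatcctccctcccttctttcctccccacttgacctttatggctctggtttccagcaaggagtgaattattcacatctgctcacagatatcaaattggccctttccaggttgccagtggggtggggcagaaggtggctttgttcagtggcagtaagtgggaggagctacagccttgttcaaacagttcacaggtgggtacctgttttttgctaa
Gsto2, chr19:47865295-47865594 (+ strand): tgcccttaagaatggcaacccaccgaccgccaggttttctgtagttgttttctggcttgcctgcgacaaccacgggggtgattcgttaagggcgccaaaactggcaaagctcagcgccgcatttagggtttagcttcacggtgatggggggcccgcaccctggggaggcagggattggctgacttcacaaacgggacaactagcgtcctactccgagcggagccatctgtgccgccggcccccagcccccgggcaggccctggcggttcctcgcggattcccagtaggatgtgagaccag
Sod1, chr16:90220512-90220811 (+ strand): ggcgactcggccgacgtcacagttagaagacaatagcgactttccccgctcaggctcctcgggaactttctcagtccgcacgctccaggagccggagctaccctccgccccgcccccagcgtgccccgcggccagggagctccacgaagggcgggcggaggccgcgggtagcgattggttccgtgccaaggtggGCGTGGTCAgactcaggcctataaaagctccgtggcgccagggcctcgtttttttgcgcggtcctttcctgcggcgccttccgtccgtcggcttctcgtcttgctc
Gsta3, chr1:21240335-21240634 (+ strand): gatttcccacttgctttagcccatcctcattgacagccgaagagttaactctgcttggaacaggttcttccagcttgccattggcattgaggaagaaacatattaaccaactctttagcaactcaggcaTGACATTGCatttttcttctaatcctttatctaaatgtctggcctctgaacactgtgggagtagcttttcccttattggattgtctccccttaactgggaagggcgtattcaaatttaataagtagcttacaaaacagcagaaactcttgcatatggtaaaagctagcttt
Txnrd1, chr10:82858956-82859255 (+ strand): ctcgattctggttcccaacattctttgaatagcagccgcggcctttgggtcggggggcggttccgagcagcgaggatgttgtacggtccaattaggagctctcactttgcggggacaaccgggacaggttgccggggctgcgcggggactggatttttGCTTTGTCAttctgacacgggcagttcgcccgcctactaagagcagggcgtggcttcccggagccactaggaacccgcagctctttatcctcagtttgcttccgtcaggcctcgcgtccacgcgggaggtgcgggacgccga
The Mgst2 window had no CG and a TGACTCA beginning 52 bases before the start, those of Sod1 and Gsta3 had TGACNNNGC beginning 56 and 121 bases before it, and that of Txnrd1 92 bases before it. Windows of Sod1 and Txnrd1 held 34 and 27 CG, of Gsto2 20, of Gsta3 2 and of Gpx2 none.

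Donor cells were then compared within the present array set, where scanner and software were the same. Male Purkinje minus male CA1 clones had 10 genes called (21.7%), 4 higher and 6 lower, against 18.4% of all genes (10.9% higher, 7.54% lower). Gsr (0.88 ± 0.25, adjusted p = 0.0144), Sod2 (0.82), Gsto1 (0.68) and Gsta4 (0.42) were higher in Purkinje clones, and Gstm3 (-2.22), Gstp1 (-1.79 ± 0.26, adjusted p = 2.8e-05), Gpx7 (-1.54), Gstt2 (-1.47), Prdx2 (-0.99) and Gstz1 (-0.86) lower. Female Purkinje minus female CA1 clones had 9 called (19.6%), 8 higher and 1 lower, against 11% (6.19% and 4.82%). Sod1 (0.83), Gclm (0.77), Gsto1 (0.77), Gsr (0.75), Gsta4 (0.60), Txn1 (0.56), Sod2 (0.50) and Prdx6b (1.06 ± 0.28, adjusted p = 0.0159) were higher and Gstp1 (-0.87 ± 0.26, 0.0265) lower. For Gsr in males, the other probes gave 0.11 (not called) and 0.86. These comparisons set Purkinje arrays, all of less signal, against brighter arrays. Without the Purkinje arrays of low signal, Gstp1 in males (-1.47, limma adjusted p = 0.00327) was the 1 member called, beside 269 higher and 266 lower of all 15484 genes. In females 1 Purkinje array was left, too few for a count. Scaling to the array median gave 1 higher and 6 lower in males and 0 higher and 6 lower in females. Of all 16220 genes it gave 770 higher and 1149 lower in males and 265 and 2891 in females.

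Male Purkinje minus Sertoli clones had 1 gene called, Gstp1 (-1.16 ± 0.26, adjusted p = 0.00669), against 4.77% of all genes (3.35% higher, 1.42% lower), and it was not called without the dim arrays (-0.84, adjusted p = 0.174). There, 10 genes had an unadjusted p under 0.05 in limma. Male and female IVF blastocysts, which lie in the same array set, differed in 0 of the 46 genes, against 0.435% of all genes (0.113% higher, 0.322% lower). At an unadjusted p under 0.05 there were 8, and the smallest adjusted p was that of Prdx3 (male minus female -0.65, adjusted p = 0.162).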

How the data were processed

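The deposited files hold scanner intensities per spot, in linear units, that the authors obtained with Agilent Feature Extraction (9.5.3.1 for IVF and cumulus, 10.5.1.1 for the other arrays, per the file headers), and the authors' value table on a log2 scale, centred per probe and sex. From the processed signal, outlier spots were removed, spots of a probe averaged, values divided by the array's 75th percentile, set to a common floor of 0.0912 and put on a log2 scale. Probes entered the test when more than 50% of the arrays in any group had them flagged as above background, and the brightest probe stood for a gene. Group means over 33 arrays were fitted with limma 3.58.1 in R 4.3.3, with Benjamini-Hochberg adjustment over 15860 genes at 0.05. The number of arrays limits precision.

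By rule, array values were given for Mgst2 and for members called in the same direction in at least 4 of the 6 comparisons with IVF, and other called members with their change. The members and lists were chosen with earlier results of these data known. On data simulated for male Purkinje against male IVF with 15860 genes, 43 of 100 genes changed by 1 log2 unit and 89 of 100 changed by 2 were recovered. In that run 5 unchanged genes were called. The changed genes lay well above the floor, were few beside the genes called in the data, and had equal spread in all groups. These rates therefore need not hold for the members. Normexp correction used median signals, as the mean signal is not a column of 20 files. Other scalings, floors, filters, probe rules, blocks and left-out arrays were tried.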

Additional observations from a re-analysis of the deposited data

Results flagged for a closer look

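The CA1 clone minus IVF difference was called unlike between the sexes for 2 of the 46 genes (limma interaction), against 1.07% of all genes. In each sex this difference also holds TSA and array set. For Gpx7 the interaction, female minus male, was -1.96, and for Gpx4 it was 1.14. Male minus female IVF, a part of it, was -0.96 for Gpx7 and 0.42 for Gpx4, neither called. With slide as a random block neither interaction was called. With 1 array left out at a time each was called in 7 of 18 fits and both together in 2, and over all alternatives Gpx7 was kept in 12 and Gpx4 in 13 of 30. Among the 13 genes given by array, no array stood apart from the rest of its group by Dixon's criterion in 78 sets of 4 to 7 arrays. In sets this small the criterion flags only an array very far from the others, and it cannot see a group that splits in 2. It therefore does not show that the arrays of a group are alike.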

How the results depend on the processing

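Mgst2 kept its direction in all 6 comparisons with IVF under every alternative run. It was no longer called in female Purkinje clones without the Purkinje arrays of low signal (3.41), where 1 array is assumed to vary like the other groups, nor in cumulus clones without female IVF replicate 2. With 1 array left out at a time its difference was 3.61 to 4.42 in male Purkinje, 4.06 to 4.41 in male CA1, 2.88 to 3.56 in Sertoli, 3.46 to 4.69 in female Purkinje, 3.17 to 4.40 in female CA1 and 2.64 to 3.87 in cumulus clones. In the same fits Mgst2 in male minus female IVF ran between -0.73 and 0.49, in male Purkinje minus male CA1 between -0.63 and 0.18, in female Purkinje minus female CA1 between -0.08 and 0.60, in male Purkinje minus Sertoli between 0.35 and 1.30 and in male CA1 minus Sertoli between 0.68 and 1.36. Over all alternatives the lowest values were -0.94, -1.08, -0.33, 0.037 and 0.68 in the same order, with the same highest values.

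The number of members called moved by more than 1.5 times as follows, and the cause was not tested. Numbers in brackets are the genes called higher and lower over all genes tested. Without the Purkinje arrays of low signal it was 3 in male Purkinje (1063 and 541 of 15484 genes) and 5 in female CA1 clones (1300 and 724) against IVF. There it was 1 in male Purkinje minus CA1 (269 and 266), 0 in male Purkinje minus Sertoli (87 and 48) and 0 for the sex difference in CA1 clones (70 and 103). Female Purkinje clones, with 1 array left, are not counted there. Normexp correction gave 6 in Sertoli (951 and 739 of 19202 genes), 1 in female CA1 (227 and 208) and 1 in cumulus clones (48 and 104). It gave 0 in female Purkinje minus CA1 (94 and 228), 7 in male Purkinje minus Sertoli (4618 and 805) and 0 for the sex difference in CA1 clones (0 and 0). Scaling to the array median gave 10 in female Purkinje (464 and 2798 of 16220 genes), 2 in female CA1 (799 and 769) and 2 in cumulus clones (241 and 269). It gave 2 in male CA1 minus Sertoli (476 and 686) and 1 for the sex difference (91 and 63). Quantile normalization gave 5 in female CA1 clones (800 and 1055 of 15860 genes) and 5 in female Purkinje minus CA1 (705 and 694). It gave 3 in male CA1 minus Sertoli (1009 and 905) and 1 for the sex difference (77 and 115). The mean of a gene's probes gave 5 in female CA1 clones (1022 and 704 of 15860 genes). Slide as a random block gave 5 in female CA1 clones (1080 and 630 of 15860 genes), 4 in female Purkinje minus CA1 (764 and 549) and 0 for the sex difference (53 and 69). In male Purkinje minus Sertoli, a floor at 50% of the one used gave 2 (813 and 302 of 17950 genes) and no filter on dim probes 3 (545 and 232 of 20452). Trended robust eBayes gave 2 there (539 and 221 of 15860) and 1 for the sex difference (76 and 101). The authors' value table gave 5 in female Purkinje minus CA1 (1030 and 674 of 15860 genes) and 0 for the sex difference (58 and 55).

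Replicate numbers did not pair the arrays: over 99 same-numbered pairs the median correlation of deviations was -0.01, and 9 of 33 arrays were closest to one of their own number. With the replicate block the counts were 15 in male Purkinje clones against IVF, 3 in male CA1 minus Sertoli and 0 for the sex difference in CA1 clones. Of all 15860 genes, 2298 were higher and 1217 lower, 900 and 1026, and 49 and 76 in the same order.

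With 1 array left out, counts ran between 14 (male Purkinje replicate 3) and 23 in male Purkinje, 12 and 17 in male CA1, 10 and 14 in Sertoli, 12 and 16 in female Purkinje, 2 (female IVF replicate 1) and 8 in female CA1, and 1 (female IVF replicate 2) and 6 (cumulus replicate 3) in cumulus clones. They ran between 5 (male Purkinje replicate 4) and 12 in male and 2 (female Purkinje replicate 3) and 12 in female Purkinje minus CA1, 1 and 4 in male Purkinje minus Sertoli, 1 and 3 in male CA1 minus Sertoli, 0 and 1 between IVF sexes, and 0 and 2 for the sex difference in CA1 clones, with 0 throughout in Purkinje clones.

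Directions turned for Prdx6 with the mean of its probes (-0.34 in male Purkinje, -0.28 in male CA1, -0.42 in Sertoli and -0.31 in female CA1 clones), Prdx4 likewise in male Purkinje (0.015), and Mgst3 in female Purkinje clones without the arrays of low signal (0.25). Sod2 turned with normexp correction (-0.20 in male and -0.088 in female Purkinje clones, -0.0011 in female Purkinje minus CA1), with quantiles (-0.0095, -0.0081 and -0.32) and, in female Purkinje minus CA1, with the array median (-0.036). Normexp correction also turned Txn1 (-0.035) and Gstm5 (0.40) in male Purkinje clones and Gsta4 in male Purkinje minus CA1 (-0.045). The donor comparisons with IVF are limited by the array set, and low genes by the dim Purkinje arrays and the unlike low signals of the array sets.

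Further calls kept in fewer than 50% of the fits without an array were Gsr (3 of 7), Gstz1 (2 of 7) and Prdx1 (3 of 7) in female CA1 clones, Gstt2 (3 of 7), Mgst3 (2 of 7) and Blvra (1 of 7) in female Purkinje clones, Prdx1 in cumulus clones (2 of 6), Sod1 in Sertoli clones (4 of 11) and Prdx4 in male Purkinje clones (4 of 11). In Purkinje minus CA1 they were Gsta4 (3 of 8), Gsto1 (1 of 8) and Gstz1 (3 of 8) in males, and Gsr, Gsto1, Sod2, Txn1 (2 of 8 each) and Sod1 (3 of 8) in females.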

Other observations

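Among the protein-coding neighbours of Mgst2 that were tested, Rab33b, a small GTPase of the Golgi, rose in male Purkinje (0.79, limma adjusted p = 0.01), Sertoli (0.61, 0.0468) and female Purkinje clones (0.88, 0.0259). In male CA1, female CA1 and cumulus clones Rab33b differed by 0.57, 0.70 and 0.43 and was not called. Setd7, a lysine methyltransferase, differed by 1.23 in male Purkinje and -0.14 in female Purkinje clones, neither called, and Naa15, Foxo1 and Cog6 were called in no clone group.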
